A study of Mus musculus with 8 samples.

Results

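Glutathione S-transferases are enzymes that join the tripeptide glutathione to reactive, electrophilic compounds so that these become soluble and can be exported. The cytosolic enzymes work as dimers and fall into classes by sequence, among them alpha, mu, pi and theta. The liver is rich in them, and several of their genes are known to respond to the stress sensor NRF2 and to the xenobiotic receptors CAR and PXR. The genes described here are Gstm1, Gstm2 and Gstm3 of the mu class, Gstp1 and Gstp2 of the pi class, Gstt1 and Gstt3 of the theta class, and Gsta2, Gsta3 and Gsta4 of the alpha class. They were taken by symbol, from a list chosen with earlier results of these data known, and are 10 of the 24940 gene rows in the liver count table.

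Poly(A) RNA was sequenced from livers of male C57BL/6 mice of 2 genotypes, with 4 livers each. The FXRKO mice carried floxed Bcl6 alleles, Bcl6(fl/fl), and were homozygous for the Fxr knockout, written FXR(homo). The BCL6LKOFXRKO mice, named DKO in the count table and here, carried the same alleles and the Alb-Cre transgene as well. Both genotypes thus lacked the bile acid receptor FXR in the whole body, and the Albumin promoter drives Cre in hepatocytes, so that the transcriptional repressor BCL6 was deleted there. Livers with intact Fxr or with Cre alone were not analysed here, so that the loss of Bcl6, the presence of Cre and any secondary change in the liver cannot be told apart. Age was not given in the sources used here.

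Between 7586241 and 11839503 reads were counted on genes per liver. Bcl6 was at 56.2, 65.2, 21.1 and 55.6 in counts-per-million units (CPM) in FXRKO livers 1 to 4 and at 11.9, 4.605, 5.54 and 7.71 in DKO livers 1 to 4, without overlap (log2 fold change -2.72, SE 0.40, adjusted p = 0.00123). Reads were still counted on Nr1h4, the Fxr gene, at 59.9 ± 2.46 CPM in FXRKO and 43.4 ± 3.69 in DKO (SD, n = 4), without overlap (log2 fold change -0.46, adjusted p = 0.00497). Counts were given per gene, so that reads on the deleted part of Nr1h4 were not examined. Albumin took 4.04% to 5.16% of all counts in FXRKO livers and 11.9% to 13.2% in DKO livers, and CPM were therefore scaled by TMM, which allows for such shifts in composition. Of the hepatocyte markers, 9 were tested, with 3 called higher and 2 lower in DKO. Among all tested genes 16.2% were called higher and 13.5% lower. The sum of these markers, mostly albumin, was 71333 to 81292 CPM in FXRKO and 163491 to 189298 CPM in DKO. The tissue is whole liver, so that a change in the number of cells of a type and a change of RNA per cell cannot be told apart. A gene is called here when its adjusted p in edgeR's quasi-likelihood test, corrected over all 12340 tested genes, is below 0.05. All log2 fold changes compare DKO with FXRKO.

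Members of a class can be near copies, which matters here because only reads with a single best place in the genome were kept. The pi pair is the extreme case. Gstp1 (chr19:4035411-4037912) and Gstp2 (chr19:4040288-4042221) lie on the minus strand, and 621 of their 633 coding bases were identical (98.1%). The first 100 coding bases, the length of 1 read, are shown because the few positions that tell the genes apart decide which reads could be counted. They lie in 3 exons within chr19:4037334-4037863 for Gstp1 and chr19:4041628-4042165 for Gstp2 (GENCODE transcripts, GRCm38, minus strand), and capitals mark the 6 positions at which the pair differs.
Gstp1: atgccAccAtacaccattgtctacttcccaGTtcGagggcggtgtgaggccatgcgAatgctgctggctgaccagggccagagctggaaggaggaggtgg
Gstp2: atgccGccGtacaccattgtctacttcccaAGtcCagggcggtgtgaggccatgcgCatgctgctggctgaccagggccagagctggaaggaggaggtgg
Of all 100-base windows of the Gstp1 transcript 52.8% were also found, letter for letter, in a transcript of another gene, and of the Gstp2 transcript 63.5%. These windows recur in the partner gene or in the pseudogene Gstp-ps. Levels per length of this pair are therefore uncertain and likely too low. A change of 1 gene between genotypes rests on the same countable windows in every liver.

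The mu genes were further apart. Coding identity was 89.5% between Gstm1 and Gstm3, 86% between Gstm1 and Gstm2 and 85.1% between Gstm2 and Gstm3. The first 100 coding bases of the mu members are given because these are the genes that rose together. They are spread over 2 exons within chr3:108017363-108017775 for Gstm1, chr3:107986046-107986393 for Gstm2 and chr3:107968775-107969140 for Gstm3, minus strand. Capitals mark positions that differ from Gstm1, and in Gstm1 itself those at which either of the others differs.
Gstm1: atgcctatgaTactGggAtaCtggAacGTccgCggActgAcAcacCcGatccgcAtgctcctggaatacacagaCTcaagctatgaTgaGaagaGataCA
Gstm2: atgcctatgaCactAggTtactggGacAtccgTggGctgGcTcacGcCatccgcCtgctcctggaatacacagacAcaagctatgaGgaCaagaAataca
Gstm3: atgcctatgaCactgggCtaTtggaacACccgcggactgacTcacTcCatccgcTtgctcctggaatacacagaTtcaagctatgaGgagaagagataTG
Over this stretch Gstm2 differed from Gstm1 at 16 positions and Gstm3 at 13. Shared 100-base windows made up 7.73% of the Gstm1, 0.622% of the Gstm2 and 13.8% of the Gstm3 transcript. For Gsta2 the share was 35%, recurring in Gsta1, with which it had 97.5% coding identity, and in the predicted genes Gm10639 and Gm3776. No shared window was found for Gsta3, Gsta4, Gstt1 or Gstt3.

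The mu members Gstm1, Gstm2 and Gstm3, the pi member Gstp2 and the theta member Gstt3 were higher and the theta member Gstt1 was lower in livers that lacked both Fxr and hepatic Bcl6. All 10 genes passed the filter on low counts. Of these, 5 were called higher in DKO, 1 was called lower, and 4 were not called (Gsta2, Gsta3, Gsta4 and Gstp1). Of all tested genes 29.7% were called, 16.2% higher and 13.5% lower. The median log2 fold change was 0.63 over the members and 0.01 over all tested genes. In the 6 called members the FXRKO and DKO livers did not overlap, a pattern seen in 31.3% of all tested genes.

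**Figure D1:**
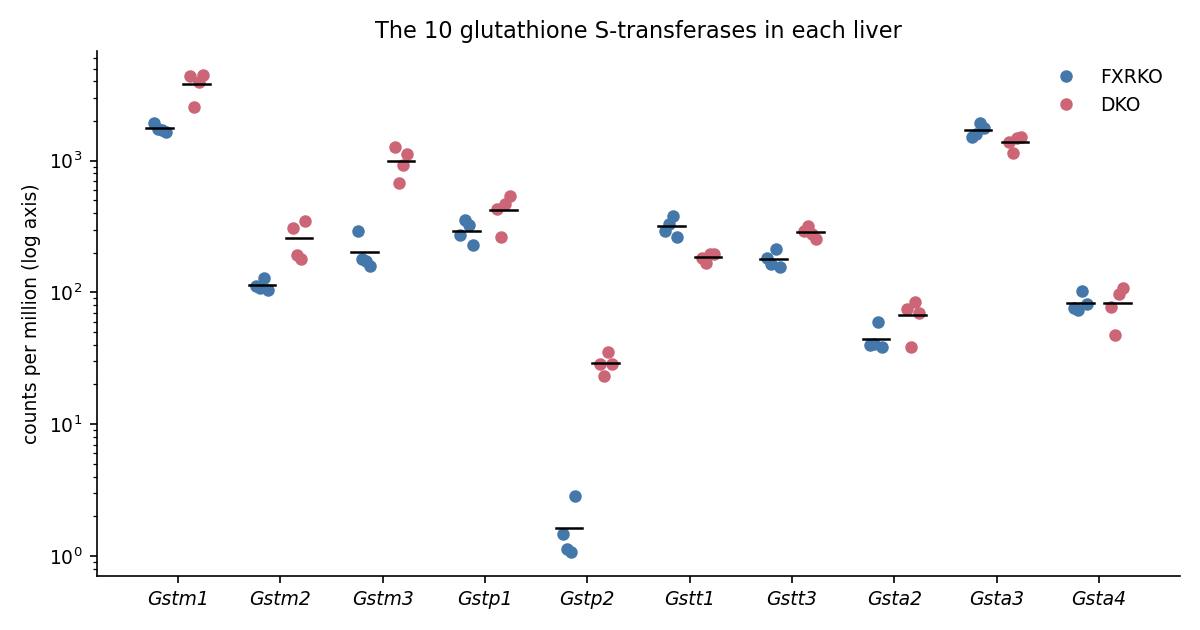
CPM (log axis) of the 10 genes in each of 4 FXRKO livers (blue) and 4 DKO livers (red), with a black bar at the mean. Gstp2 has a gap from 2.83 to 23.1 CPM between the groups, Gstm1, Gstm2, Gstm3 and Gstt3 are higher and Gstt1 lower in DKO without overlap, and the other genes overlap.

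Gstm1, the main mu-class transferase of mouse liver, had the highest mean CPM of the members in both groups, although Gsta3 was above it in FXRKO livers 3 and 4. It stood at 1945, 1743, 1703 and 1665 CPM in FXRKO livers 1 to 4 and at 4371, 2577, 3935 and 4502 CPM in DKO livers 1 to 4. Every DKO liver was above every FXRKO liver, with DKO liver 2 the nearest. The mean was 1764 ± 125 CPM (SD, n = 4) in FXRKO and 3846 ± 880 in DKO, a 2.18-fold rise (log2 fold change 1.13, SE 0.17, adjusted p = 0.000301).

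Gstm3, whose gene lies in the same cluster, rose more steeply. It was at 294, 181, 172 and 160 CPM in FXRKO livers 1 to 4, with liver 1 well above the others. In DKO livers 1 to 4 it reached 1280, 671, 930 and 1122 CPM, all above the highest FXRKO liver. This was a 4.97-fold rise (log2 fold change 2.31, SE 0.24, adjusted p = 2.77e-05).

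Gstm2 was at 112, 108, 129 and 105 CPM in FXRKO livers and at 306, 193, 181 and 348 in DKO livers. The DKO livers fell into a lower pair, livers 2 and 3, and a higher pair, livers 1 and 4, and none reached down to the FXRKO range. The rise was 2.27-fold (log2 fold change 1.18, SE 0.20, adjusted p = 0.000759). Within each liver Gstm3 amounted to 10.3% to 16.3% of Gstm1 per length in FXRKO and to 25.5% to 31.5% in DKO, so that the rise of Gstm3 exceeded that of Gstm1 in every DKO liver. Gstm2 made up 7.23% to 9.50% of Gstm1 in FXRKO and 5.78% to 9.71% in DKO, with full overlap.

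Gstp2 had the largest change among the members. Its raw counts were 14, 9, 10 and 30 in FXRKO livers 1 to 4 and 283, 191, 366 and 316 in DKO livers 1 to 4. In CPM this was 1.46, 1.12, 1.07 and 2.83 against 28.5, 23.1, 35.6 and 28.6. A gene that was barely counted in FXRKO was well above that level in every DKO liver, at 17.3 times the FXRKO level (log2 fold change 4.12, 95% interval 3.56 to 4.68, adjusted p = 1.47e-07).

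Gstp1, the abundant pi-class enzyme, did not follow its near copy to that extent. It was at 272, 354, 323 and 230 CPM in FXRKO livers and at 428, 261, 472 and 540 in DKO livers. Of the DKO livers 3 were above all FXRKO livers, whereas DKO liver 2 lay inside the FXRKO range. The log2 fold change was 0.53 (95% interval 0.09 to 0.98, adjusted p = 0.0688). Without DKO liver 2 the gene was called at 0.69 (adjusted p = 0.00551). Per length, Gstp2 was 0.530%, 0.314%, 0.329% and 1.22% of Gstp1 in FXRKO livers 1 to 4 and 6.58%, 8.76%, 7.46% and 5.24% in DKO livers 1 to 4. The ratio was higher in every DKO liver than in any FXRKO liver, also in liver 2, where Gstp1 was low.

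Gstt1 and Gstt3 are theta-class transferases, a class known for handling small halogenated compounds, and they moved in opposite directions. Gstt1 was at 295, 332, 383 and 264 CPM in FXRKO livers 1 to 4 and at 183, 166, 196 and 196 in DKO livers 1 to 4. No DKO liver reached the lowest FXRKO liver, and the DKO livers lay close together. Expression was 1.72-fold lower (log2 fold change -0.78, SE 0.13, adjusted p = 0.000662), and Gstt1 was the only member called lower.

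Gstt3 was at 182, 165, 213 and 156 CPM in FXRKO and at 292, 317, 279 and 254 in DKO. The groups were again apart, here with the DKO livers on top. The rise was 1.597-fold (log2 fold change 0.68, SE 0.13, adjusted p = 0.00139). Gstt3 amounted to 27.4% to 34.0% of Gstt1 per length in FXRKO livers and to 71.6% to 105% in DKO livers, so that the genes approached parity in the double knockout.

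No alpha-class member was called. Gsta3, the constitutive alpha-class transferase of mouse liver, was at 1502, 1598, 1945 and 1766 CPM in FXRKO and at 1389, 1152, 1480 and 1509 in DKO. The ranges met narrowly, with DKO liver 4 just above FXRKO liver 1. The log2 fold change was -0.30 (95% interval -0.59 to -0.01, adjusted p = 0.109), and with library totals alone in place of TMM it was -0.46 and called (adjusted p = 0.0241).

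Gsta2 was at 39.7, 40.6, 60.1 and 38.3 CPM in FXRKO livers and at 74.3, 38.8, 85.1 and 70 in DKO livers. The other 3 DKO livers were above all FXRKO livers, and DKO liver 2 was at the level of the FXRKO livers. The log2 fold change was 0.59 (95% interval 0.09 to 1.09, adjusted p = 0.0726). It was called without DKO liver 2 (0.77, adjusted p = 0.00441) and without FXRKO liver 3 (0.76, adjusted p = 0.0269).

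Gsta4, which acts on lipid peroxidation products such as 4-hydroxynonenal, was at 76.1, 73.8, 103 and 81.3 CPM in FXRKO and at 76.9, 47.4, 97.8 and 108 in DKO. The groups overlapped over most of their range. The log2 fold change was -0.02 (95% interval -0.49 to 0.46, adjusted p = 0.966). Relative to Gsta3 in the same library, Gsta2 was 3.85% to 5.50% per length in FXRKO and 5.99% to 10.2% in DKO, without overlap.

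**Figure D2:**
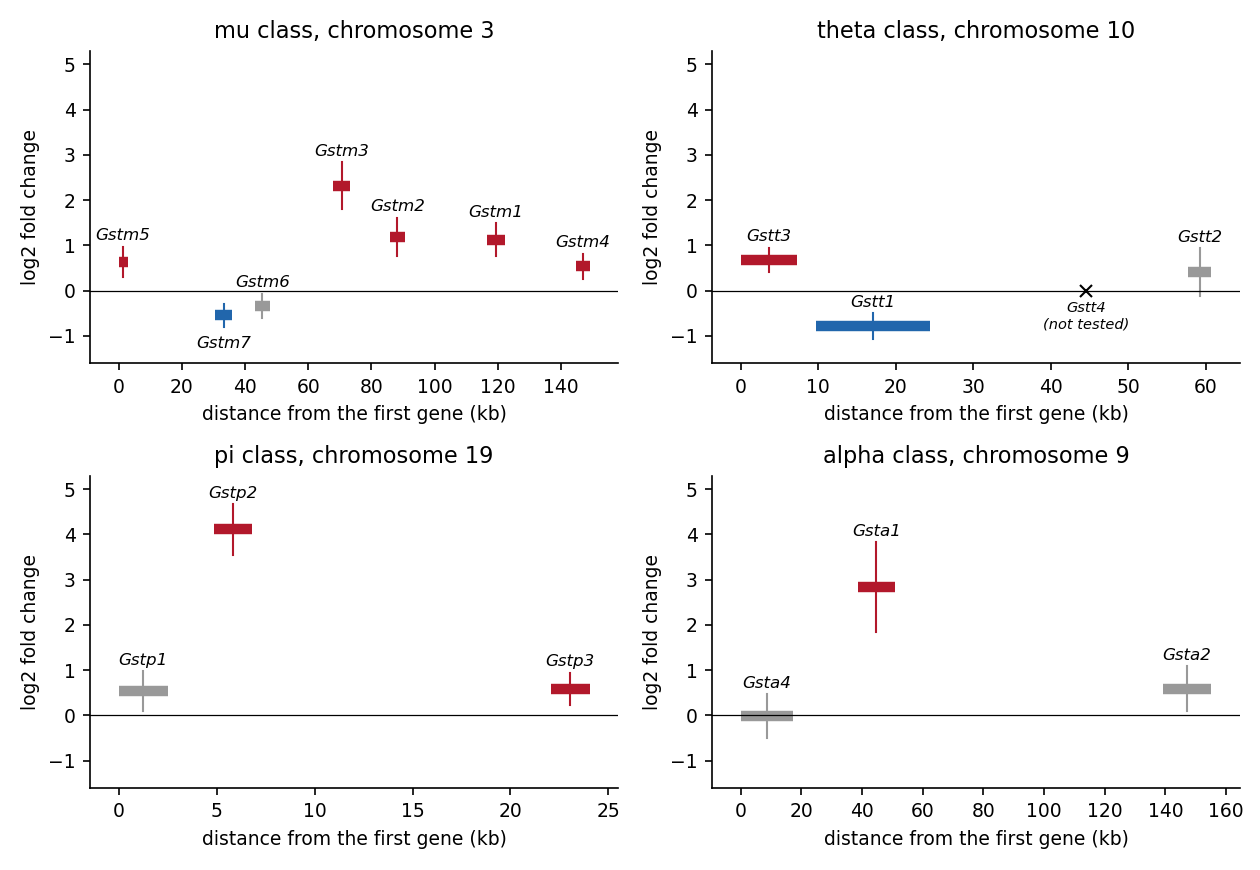
Log2 fold change (DKO against FXRKO) of each gene against its distance in kb from the first gene of its cluster, for the mu, theta, pi and alpha classes. Thick bars span the gene, thin lines are 95% intervals, and red, blue and grey mark genes called higher, called lower and not called, and a cross marks a gene too low to be tested (Gsta3 lies apart, on chromosome 1, and is not drawn). Neighbours differ in direction in the mu and theta clusters, and the rise of Gstp2 at 4.12 is flanked by smaller values.

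Genes of a class lie in clusters, apart from Gsta3, and in the mu and theta clusters genes called higher and genes called lower lay side by side. The mu cluster on chromosome 3 spans 149 kb with 7 genes. In order of position, Gstm5 was higher (log2 fold change 0.63), Gstm7 lower (-0.55), Gstm6 not called (-0.33), and Gstm3, Gstm2, Gstm1 and Gstm4 higher (2.31, 1.18, 1.13 and 0.54). The 4 genes called higher in a row thus had their peak at Gstm3, next to the part of the cluster that held the only mu gene called lower. On chromosome 10, Gstt3 (chr10:75774122-75781414) is the next gene to Gstt1 (chr10:75783813-75798584) and changed in the opposite direction. On chromosome 19, Gstp2 lies between Gstp1 (0.53, not called) and Gstp3 (0.58, adjusted p = 0.0196). No member overlapped another row of the count table.

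**Figure D3:**
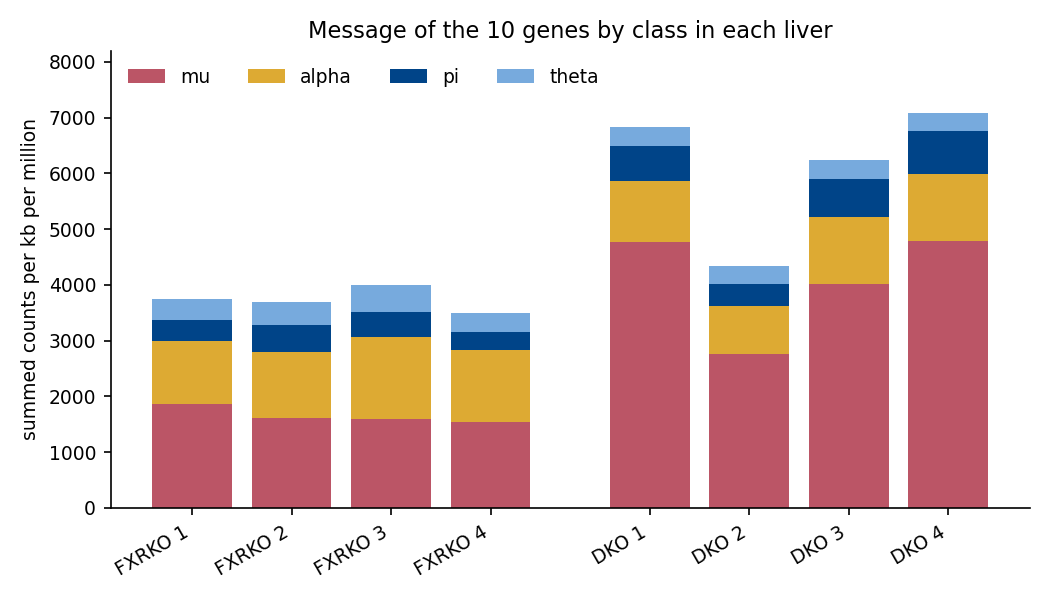
Summed CPM per kb of the 10 genes in each liver, stacked by class. The bars of the 4 FXRKO livers reach 3495 to 3995 and those of the DKO livers 4338 to 7087, with DKO liver 2 the lowest of its group, and the mu part is larger and the alpha and theta parts are a smaller share in DKO. The pi part is likely too low in all livers, because reads from its shared windows were dropped.

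Levels of different genes were compared as CPM per kb of transcript. Full lengths were used although reads from shared windows were dropped. Levels of Gstp1, Gstp2 and Gsta2, with 52.8%, 63.5% and 35% shared windows, are therefore likely too low beside the others. In FXRKO livers the order was led by Gstm1 (1374 ± 97.0, SD, n = 4) and Gsta3 (1132 ± 130), followed by Gstp1 (401 ± 74.5), Gstt1 (309 ± 49.5) and Gstm3 (169 ± 52.3). Below these came Gstm2 (111 ± 10.5), Gstt3 (95.8 ± 13.4), Gsta4 (88.0 ± 14.1), Gsta2 (52.8 ± 12.2) and Gstp2 (2.18 ± 1.11). Neighbours in this order overlapped for Gstp1 and Gstt1, for Gstm2 and Gstt3 and for Gstt3 and Gsta4, and the others were apart.

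In DKO livers Gstm1 led alone at 2996 ± 685 CPM per kb. Gsta3 (919 ± 108), Gstm3 (840 ± 220) and Gstp1 (579 ± 162) overlapped with their neighbours, and so did Gstm2 (252 ± 81.0), Gstt1 (180 ± 13.9) and Gstt3 (153 ± 13.9). Gsta4 (87.0 ± 28.2), Gsta2 (79.3 ± 23.5) and Gstp2 (39.0 ± 6.87) formed the lowest group. Gstm3 thus moved from rank 5 to rank 3, and Gstt1 from rank 4 to rank 6.

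Together the 10 genes amounted to 3734 ± 206 CPM per kb in FXRKO and 6122 ± 1241 in DKO. The mu class made up 44.4% ± 4.098 of this sum in FXRKO and 66.4% ± 2.94 in DKO, without overlap between livers. The alpha share was 34.1% ± 3.59 in FXRKO and 18.0% ± 1.79 in DKO and the theta share 10.8% ± 1.062 and 5.64% ± 1.37, also without overlap, although Gsta3 itself was not called. These are parts of a sum that was larger in DKO, so that a smaller share is not by itself a lower level. The pi share was 10.8% ± 1.73 and 9.996% ± 1.15, with overlap. It is likely too low in both genotypes, because reads from the shared windows of the pair were dropped. The shares of the other classes are affected as well. As a share of all counts the 10 genes took 0.470% to 0.535% in FXRKO and 0.491% to 0.819% in DKO.

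The members differed in how they varied among livers of 1 genotype. DKO liver 2 was the lowest DKO liver for Gstm1, Gstm3, Gstp1, Gstp2, Gstt1, Gsta2, Gsta3 and Gsta4, and for Gstt3 it was the highest. After the genotype mean was taken out, log2 CPM of the alpha genes moved together over the 8 livers (r = 0.85 for Gsta2 with Gsta3, 0.89 for Gsta2 with Gsta4 and 0.91 for Gsta3 with Gsta4), as did Gstm1 with Gstm3 (r = 0.83) and Gstm1 with Gstp1 (r = 0.79). Gstt3 and Gstp2 stood apart from this, with r = -0.64 between them and -0.41 between Gstt3 and Gstm1. These values describe the same 8 libraries and share their scaling. Each of the 6 called members was called with the same sign when any 1 liver was left out.

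**Figure D4:**
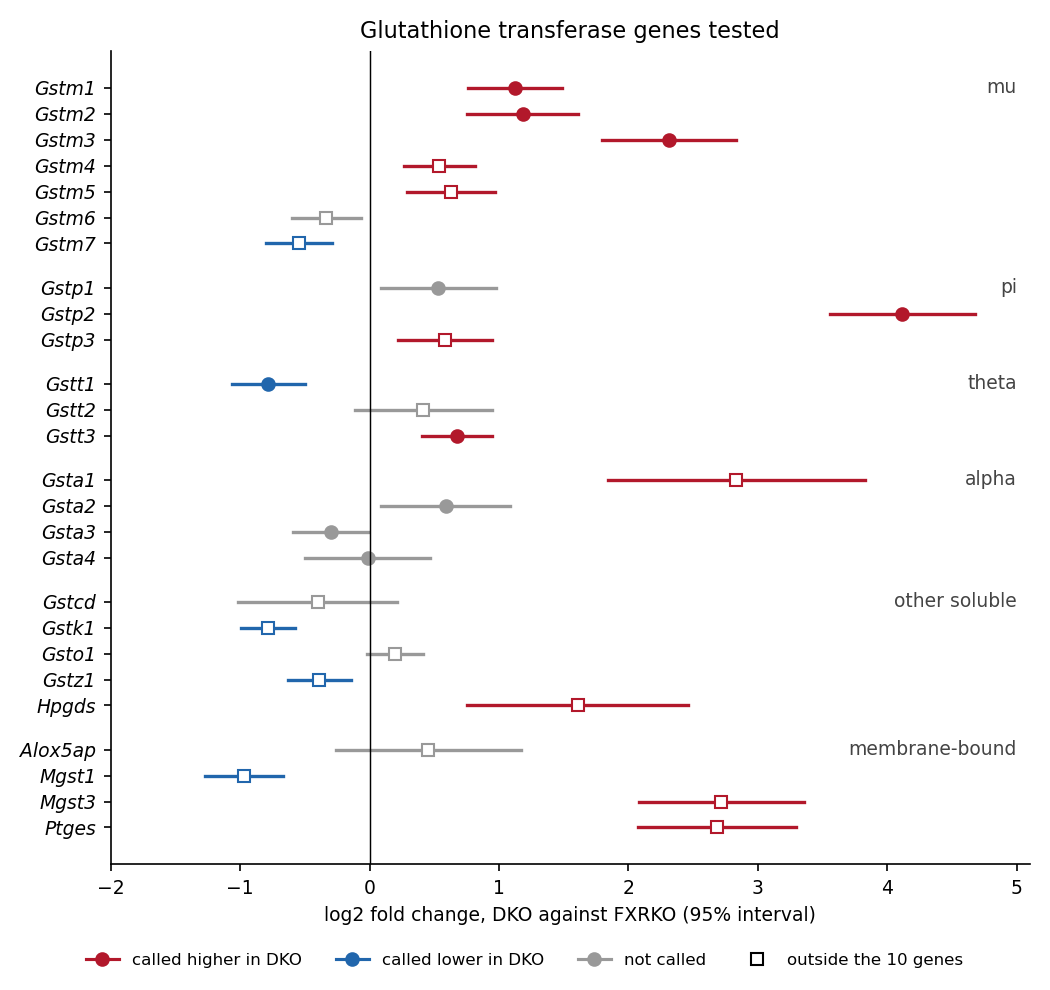
Log2 fold change (DKO against FXRKO) with its 95% interval for the 26 tested genes of the glutathione transferase families by class, relatives such as Alox5ap and Gstcd included, with filled circles for the 10 members and open squares for the others. Red, blue and grey mark called higher, called lower and not called. Gstp2 at 4.12, Gsta1 at 2.83, Mgst3 at 2.72 and Ptges at 2.69 lie farthest to the right and Mgst1 at -0.97 farthest to the left.

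Other genes of the glutathione transferase families also changed in both directions. Their list includes the relatives Alox5ap and Gstcd, which are not counted among the enzymes themselves. Of 20 with a row in the table, 16 were tested, and 7 of these were called higher, 4 lower and 5 not. Their median log2 fold change was 0.43. For these counts and those of the lists below, the share of all tested genes was 16.2% higher and 13.5% lower. Among the other soluble enzymes, the alpha gene Gsta1 rose from 2.80 ± 1.42 to 19.9 ± 9.80 CPM (log2 fold change 2.83, adjusted p = 0.00119). Most of its 100-base windows (81.8%) recurred in other genes such as Gsta2, so that its level is uncertain. Hpgds, the sigma-class prostaglandin D synthase, was higher at low counts (1.61, adjusted p = 0.00836).

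Gstm4 (0.54, adjusted p = 0.00683), Gstm5 (0.63, adjusted p = 0.00936) and Gstp3 (0.58, adjusted p = 0.0196) were higher by smaller amounts. Gstm5 shares 360 bases with a row on the opposite strand, 4933431E20Rik, and no strand setting was named for the counting. Gstm7 was lower (-0.55, adjusted p = 0.00399), and so were the kappa-class Gstk1, an enzyme of mitochondria and peroxisomes (-0.79, adjusted p = 5.85e-05), and Gstz1, the maleylacetoacetate isomerase of tyrosine breakdown (-0.39, adjusted p = 0.0199). Gstz1 overlaps Gm6566 and Pomt2, both on the opposite strand. Gstm6 (-0.33), Gstt2 (0.41), Gsto1 (0.20) and Gstcd (-0.40) were not called.

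Of the membrane-bound family, Mgst1, which in FXRKO was above all 10 members per length (3478 CPM per kb), fell from 3673 ± 164 to 1875 ± 309 CPM (log2 fold change -0.97, adjusted p = 0.000228). Mgst3 rose from 8.84 ± 2.37 to 58.3 ± 19.2 CPM (2.72, adjusted p = 6.56e-05), and Ptges, the prostaglandin E synthase, from 0.895 ± 0.313 to 5.77 ± 1.06 CPM (2.69, adjusted p = 1.57e-05). In both genes every DKO liver was above every FXRKO liver. Alox5ap was not called (0.45). Gstt4, Gsto2, Mgst2 and Ltc4s were too low to be tested, with at most 12 counts in any liver.

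The transferases consume glutathione, and genes that supply it changed in both directions. Of 19 tested genes of glutathione synthesis and recycling, 6 were called higher and 4 lower. The subunits of the rate-limiting enzyme, Gclc (-0.15, adjusted p = 0.543) and Gclm (-0.08, adjusted p = 0.694), were not called. Pgd, which makes NADPH (log2 fold change 1.07, adjusted p = 5.2e-05), the glutathione synthetase Gss (0.59, adjusted p = 0.00351) and the gamma-glutamyl transferase family gene Ggt5 (1.31, adjusted p = 0.00444) were higher. Oplah, the 5-oxoprolinase (-0.73, adjusted p = 0.000572), Cth, which makes cysteine (-0.94, adjusted p = 0.000573), and the glutaredoxin Glrx2 (-0.48, adjusted p = 0.0175) were lower.

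Among 10 tested glutathione peroxidases and glyoxalase-type enzymes, 4 were higher and 4 lower, but only 2 were higher without FXRKO liver 2, without DKO liver 1 or with library totals alone in place of TMM. Gpx3, the secreted peroxidase, was at 9.0 to 17.5 CPM in FXRKO and at 576 to 922 CPM in DKO (log2 fold change 5.98, adjusted p = 4.88e-09). Gpx7 (1.45, adjusted p = 0.00298) and Gpx4, which reduces lipid hydroperoxides (0.47, adjusted p = 0.0185), were also higher. The cytosolic Gpx1 (-0.80, adjusted p = 0.000431) and both glyoxalase enzymes, Glo1 (-0.77, adjusted p = 0.000259) and Hagh (-0.62, adjusted p = 0.000743), were lower.

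Of 18 tested genes for the export of conjugates and for their trimming to mercapturates, 9 were called lower and 4 higher. The N-acetyltransferase family genes Nat8f5 (-5.56, adjusted p = 6.99e-08) and Nat8 (-4.59, adjusted p = 2.52e-06) fell from means of 10.2 and 11.9 CPM to 0.211 and 0.502 CPM. The canalicular efflux pump Abcg2 was lower (-1.03, adjusted p = 2.07e-05). Of the other pumps, Abcc4 (2.60, adjusted p = 3.13e-06), Abcc5 (1.15, adjusted p = 0.000251) and Abcc1 (0.94, adjusted p = 0.0119) were higher, and Abcc3 (-0.91, adjusted p = 0.000427) and Abcc6 (-0.61, adjusted p = 0.000994) were lower. Abcc2, the canalicular conjugate pump, was not called (0.09, adjusted p = 0.699).

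**Figure D5:**
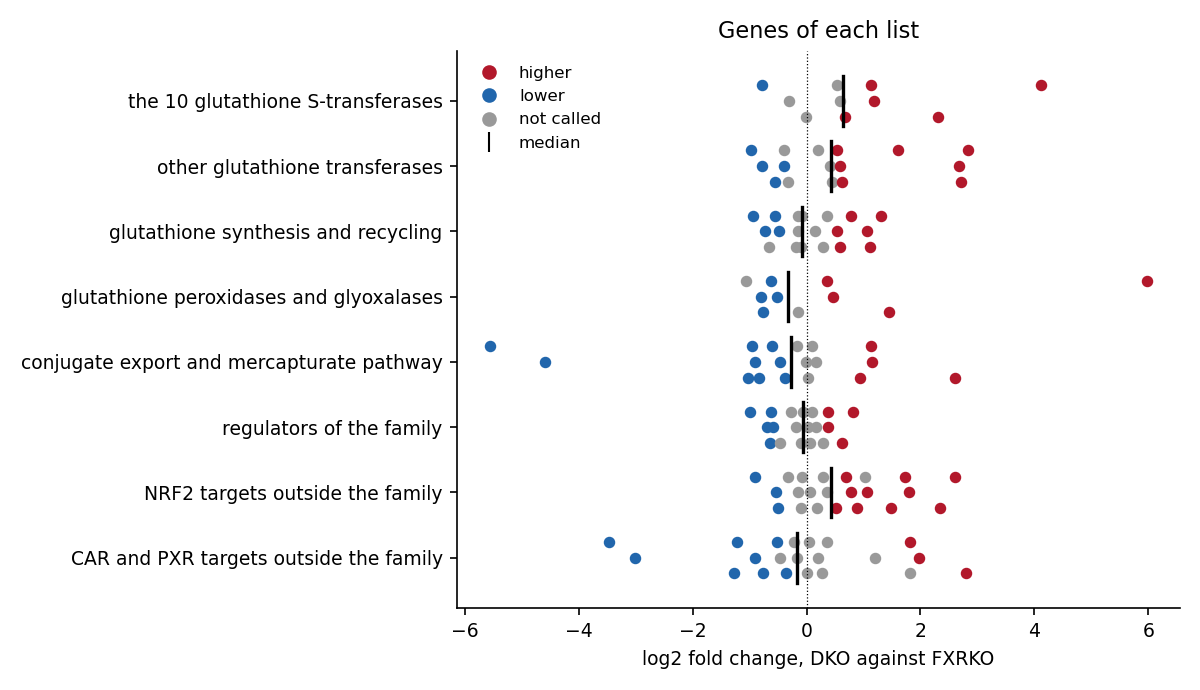
Log2 fold change (DKO against FXRKO) of every tested gene in the member list and in 7 lists of related genes, 1 point per gene, with a black bar at the median of each list. Red, blue and grey mark called higher, called lower and not called. The medians of the 10 genes (0.63), the other transferases (0.43) and the NRF2 targets (0.44) are above 0 and those of the other 5 lists lie between -0.33 and -0.06.

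Genes for known regulators of the family were tested as messages only. Of 19, 4 were called higher and 5 lower, beside 16.2% higher and 13.5% lower of all tested genes. The count called higher was thus near the general share. Nfe2l2, which encodes NRF2, was slightly higher (log2 fold change 0.38, adjusted p = 0.0395), as were its inhibitor Keap1 (0.38, adjusted p = 0.0183) and its partners Mafk (0.81, adjusted p = 0.00674) and Maff (0.62, adjusted p = 0.0497). Nr1i3, which encodes CAR, was lower (-0.64, adjusted p = 0.0338), together with Rxra (-0.60, adjusted p = 0.00365), Ppara (-0.99, adjusted p = 0.00104), Cebpa (-0.70, adjusted p = 0.00316) and Cebpb (-0.62, adjusted p = 0.00328). Nr1i2, which encodes PXR, was not called (-0.27, adjusted p = 0.197), nor were Ahr (0.29), Bach1 (0.17), Hnf4a (-0.18), Stat5a (-0.10), Stat5b (-0.06), Nr3c1 (-0.47), Arnt (0.10) and Mafg (0.07). The number of regulators called higher was 1 with library totals alone in place of TMM, 1 without FXRKO liver 3 or 4, and 2 without FXRKO liver 2 or DKO liver 3 or 4.

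Of 22 tested NRF2 targets outside the family, 10 were called higher and 3 lower. The median of their log2 fold changes was 0.44. Besides Abcc4 and Pgd, the carbonyl reductase Cbr1 rose (1.48, adjusted p = 4.14e-06). The classical target Nqo1 went from 6.50 ± 2.37 to 22.8 ± 2.71 CPM (1.80, adjusted p = 0.000109). Abcc3 (-0.91, adjusted p = 0.000427), Akr1c13 (-0.53, adjusted p = 0.00479) and Me1 (-0.51, adjusted p = 0.0175) were lower, and Hmox1, Gclc, Gclm and Txnrd1 were not called.

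Of 21 tested targets of CAR and PXR, 8 were called lower and 3 higher, with a median of -0.17. Of all tested genes 13.5% were called lower and 16.2% higher. Without FXRKO liver 1 the number called higher was 5. The cytochromes Cyp2c50 (-3.47, adjusted p = 1.19e-07) and Cyp2c54 (-3.01, adjusted p = 3.62e-05) and the sulfotransferase Sult1d1 (-1.21, adjusted p = 0.000363) were lower. The aldehyde dehydrogenase Aldh1a7 (1.82, adjusted p = 3.29e-07), the stress gene Gadd45b (1.97, adjusted p = 0.000349) and the cytochrome Cyp2b13 (2.80, adjusted p = 0.0186) were higher. Among the 10 not called were the cytochromes Cyp2b10 (1.202, adjusted p = 0.124), Cyp2b9 (1.81, adjusted p = 0.257) and Cyp3a11 (-0.46, adjusted p = 0.0891). For Cyp2b10 every DKO liver was nevertheless above every FXRKO liver. The lists overlap, and Abcc3 stands in the list of exporters and in both lists of targets.

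RefSeq promoter windows of 300 bases (GRCm38.p6, from 250 bases before to 50 after the start) were found for 9 of the 10 members; Gsta4 had none. Windows of the pi pair could be aligned over 282 bases, of which 86.2% were identical, so that the near copies share most of their promoter letters as well. The 250 bases before the start are shown because these are the genes whose responses differed most within a class. They lie at chr19:4037913-4038162 for Gstp1 and chr19:4042222-4042471 for Gstp2, minus strand. Capitals mark bases that differ from the partner or have no counterpart in its window, with 42 such bases in Gstp1 and 40 in Gstp2. Among them is a run of 12 extra bases in Gstp2. The run of capitals that opens the Gstp1 stretch lies beyond the edge of the Gstp2 window, so its bases were not compared.
Gstp1 promoter: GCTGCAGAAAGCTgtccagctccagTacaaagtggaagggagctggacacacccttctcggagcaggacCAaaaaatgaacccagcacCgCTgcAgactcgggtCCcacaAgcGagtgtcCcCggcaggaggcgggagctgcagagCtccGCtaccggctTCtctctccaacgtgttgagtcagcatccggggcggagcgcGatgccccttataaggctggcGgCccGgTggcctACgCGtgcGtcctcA
Gstp2 promoter: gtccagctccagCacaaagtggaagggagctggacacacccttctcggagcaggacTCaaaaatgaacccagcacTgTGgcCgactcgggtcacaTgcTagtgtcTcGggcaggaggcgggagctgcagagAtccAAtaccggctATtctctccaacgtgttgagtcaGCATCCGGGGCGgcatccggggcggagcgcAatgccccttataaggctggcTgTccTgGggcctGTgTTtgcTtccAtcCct
The letters TGAGTCA, to which AP-1 proteins bind, stood 74 bases before the start of Gstp1 and 89 bases before that of Gstp2, in both on the strand of the gene, and in no other member. They occurred in the windows of 5.95% of all 27025 genes with a promoter entry.

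The windows of Gstm1 and Gstm3 could be aligned over 142 bases at 64.8% identity, and those of the other pairs of 1 class over at most 33 bases. The letters TGACNNNGC, used here for the antioxidant response element core bound by NRF2, were searched on both strands. They were found in Gsta3 only, 121 bases before the start, against 14% of all genes. Other forms of the core were not searched. In Gstp1 and Gstp2 the stretch that starts with TGAGTCA matches these letters except for a G in place of the first C. It was therefore not counted, and binding of NRF2 to it was not tested. The core letters TTCNNNGAA, which read alike on both strands and are shared by BCL6 and STAT sites, were in none of the 9 windows, against 9.55% of all genes. A match is a run of letters in a short window, and sites outside these windows were not searched.

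The genes whose log2 CPM over the 8 livers was most like that of Gstp2 were Mapre2 (Pearson r = 0.997), Rdh1 (0.995) and Auts2 (0.995). These were themselves higher in DKO, with log2 fold changes of 1.75, 3.76 and 2.80. Those most like Gstt1, the member that fell, were Mettl26 (r = 0.989), Ndufaf6 (0.985) and Alas2 (0.983), with log2 fold changes of -0.74, -0.49 and -0.93. The likeness includes the difference between genotypes, and predicted genes were left out.

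Markers of other liver cells were also tested, and of all tested genes 16.2% were called higher. Of 10 stellate cell and fibroblast markers 7 were called higher and none lower, and their summed level was 257 to 355 CPM in FXRKO and 527 to 634 CPM in DKO. Of 5 tested cholangiocyte markers 3 were higher: Spp1, Prom1 and, at low means of 1.03 and 2.53 CPM, Krt19 (log2 fold change 1.28, adjusted p = 0.0271). Epcam (0.78, adjusted p = 0.0683) was not called, nor was Sox9, which went the other way (-0.81, adjusted p = 0.0773). The sums of the list, 42.7 to 69.3 CPM and 94.6 to 196 CPM, were mostly Spp1 (means of 43.3 and 87.1 CPM) and, in DKO, also Prom1 (30.5 CPM). Of 10 macrophage markers 2 were higher, with sums of 392 to 556 and 541 to 876 CPM, and of 10 endothelial markers 1 was higher, with sums of 210 to 289 and 269 to 347 CPM. The macrophage and endothelial counts were near the share of all tested genes. The 9 lymphocyte markers with a row were too low to be tested, with sums of 2.996 to 5.58 and 5.83 to 11.1 CPM. Gstp1, Gstp2, Hpgds and Ptges can be expressed by cells other than hepatocytes, and the part of these cells in the values was not tested.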

How the data were processed

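Libraries were made with a stranded poly(A) kit and read as single 100-base reads. Per the labels and the study's methods, the authors used STAR 2.5.2 on mm10 (GRCm38), dropped reads that had several locations or more than 4 mismatches, and counted exon reads per gene with HOMER 4.10 without normalization. The strand setting of the counting is not given in the sources used here. The deposited values are raw counts per gene and liver, not pooled, with a transcript length in bases. Reads that fit several near-identical genes are therefore absent from all of them.

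Counts of the 8 livers were fitted without covariates using edgeR 4.0.16 (filterByExpr, TMM, robust quasi-likelihood test) in R 4.3.3, which left 12340 of 24940 genes, with Benjamini-Hochberg correction over all of them. The study named DESeq2, which was run as an alternative (version 1.42.0), as was limma voom (version 3.58.1). On simulated counts with 200 changed genes the script was tested before use. CPM used TMM-scaled library sizes, and levels per length were CPM per kb of the deposited length. Correlations used log2 of CPM plus 0.5. The 8 columns carry different animal numbers and were taken as 8 mice; pairs of livers of 1 genotype differed by more than counting noise. The number of livers, with 4 per genotype, and the depth of 7586241 to 11839503 counts limit the precision.

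The genes and lists were chosen with earlier results of these data known, and the pathway and marker lists were written by hand from general knowledge. Named were all 10 members, all tested other transferases, from each further list the top 3 called genes per direction by adjusted p, regulators, Bcl6, and the 3 genes most correlated with the members that rose and fell most. Further genes named without a call, and the genes Nqo1, Hmox1, Gclc, Gclm, Txnrd1, Abcc2, Krt19, Spp1 and Prom1, were added after their values were seen. The value of 1 regulator is not reported here. The pairs compared as ratios were also chosen after the values were seen and are given without a test. Sequences were taken from GENCODE vM21 transcripts and RefSeq promoter windows (GRCm38.p6) and aligned with Biopython 1.88. Windows of read length were compared with transcripts only, not with the genome. For Gsta3 the longest complete GENCODE transcript was used.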

Additional observations from a re-analysis of the deposited data

Results flagged for a closer look

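In 4 of 64 groups of 4 livers that were examined, 1 liver stood farther from the others than Dixon's criterion allows, where chance alone gives about 3.2. Gstm3 was at 294 CPM in FXRKO liver 1 against 160 to 181 CPM in the others (gap of 0.845 of the range), and the log2 ratio of Gstm3 to Gstm1 stood apart in the same liver (0.831). Gsta2 was at 60.1 CPM in FXRKO liver 3 against 38.3 to 40.6 CPM (0.895). Hpgds was at 2.54 CPM in DKO liver 2 against 3.60 to 3.72 CPM (0.896), which rests on 21 to 41 counts per liver.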

How the results depend on the processing

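The 6 called members kept their direction and their call under every alternative that could be run, namely RLE size factors, library totals alone, no filter, a floor of 10 counts for each liver, DESeq2, limma voom, the fit without the 50 most counted genes and each of the 8 livers left out in turn. The floor removed Gstp2, and the fit without the most counted genes removed Gstm1. Log2 fold changes ranged from 3.95 to 4.55 for Gstp2, 2.16 to 2.55 for Gstm3, 1.003 to 1.32 for Gstm2, 0.97 to 1.27 for Gstm1, 0.51 to 0.76 for Gstt3 and -0.94 to -0.69 for Gstt1. The members that were not called were less settled. Gsta2 (0.59) and Gstp1 (0.53) were called with DESeq2, at adjusted p = 0.0448 and 0.0483, and with 1 liver left out they ranged from 0.45 to 0.77 and from 0.40 to 0.69. Gsta3 was called with limma voom (-0.31, adjusted p = 0.0473) and with library totals (-0.46), each of which gave 2 members called lower. Gsta4 changed sign with the floor of 10 counts (0.0058), without DKO liver 1 (0.02), without DKO liver 2 (0.16) and without FXRKO liver 3 (0.10), and ranged from -0.17 to 0.16 with 1 liver left out; it was never called. Library totals alone moved the median of all genes by -0.16 on the log2 scale and gave 1404 genes higher and 2949 lower, 32.3% higher among the calls in place of 54.5%. Of the other transferases, Gstp3 lost its call with library totals (adjusted p = 0.0620) and without FXRKO liver 4 (adjusted p = 0.0630), and Gstz1 lost it without DKO liver 1, DKO liver 3 or FXRKO liver 3 (adjusted p up to 0.0675); Gstm6 was called lower under 5 of 15 alternatives. No paired analysis was possible because the labels give no number, litter or batch that FXRKO and DKO mice share.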
